A study of Mus musculus with 8 samples.

Results

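The endothelin pathway was followed in the embryonic mouse outflow tract (OFT, the vessel by which the embryonic heart empties) through 5 genes chosen by name: the ligand *Edn1*, the receptors *Ednra* and *Ednrb*, and the endothelin-converting enzymes *Ece1* and *Ece2*. All 5 were among the 14608 genes with values. RNA came from OFT of embryonic day 11.5 in 8 libraries, 4 labelled Control and 4 labelled *Mib1V943F/+ Gata6STOP/+*, each made from a pool of OFT. These are compound heterozygotes that carry a *missense* allele of the ubiquitin ligase *Mib1* and a null allele of the transcription factor *Gata6* in all cells, and the alleles of the control embryos are not given in the sources used here. The sample labels give 3 individuals per pool and the methods of the study 3 pools of 4 OFT pairs per genotype, so the number of embryos behind a library is uncertain, and p-values measure the spread between pools. *Gata6* RNA did not separate the groups (262 ± 18.5 CPM in control and 249 ± 36.1 CPM in mutant, SD, n = 4 each, log2 fold change -0.08, adjusted p = 0.752, limma), nor did *Mib1* RNA (log2 fold change 0.07, adjusted p = 0.746, limma). These values are per gene and not per allele, so they cannot settle the genotype of a library in either direction. The groups are called control-labelled and mutant-labelled, and directions rest on the labels. Values are CPM, here the reads of a gene relative to the TMM-adjusted size of its library, and 1 read was worth between 0.0325 and 0.0948 CPM. Mutant-labelled replicate 2 stood apart from its group: its genes lay a median of 0.191 on the log2 scale from their means over the other mutant-labelled libraries. The same distance, each library against the others of its own group, was 0.0986 to 0.152 elsewhere.

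Endothelin 1 is made in an inactive form. Prohormone convertases such as furin trim its precursor to big endothelin, and a membrane metalloprotease, an endothelin-converting enzyme, makes the final cut. The active peptide binds G protein-coupled receptors: EDNRA, found on cranial and cardiac neural crest and on smooth muscle and needed for patterning of the pharyngeal arches and great vessels, and EDNRB, found on endothelium and on crest-derived melanoblasts and enteric neuron precursors. EDNRB also binds endothelin 3, for which EDNRA has a low affinity.

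Among the members, *Ednrb* was the one that differed most between the groups. Its control-labelled mean was 61.0 ± 19.7 CPM and its mutant-labelled mean 36.4 ± 4.55 CPM (SD, n = 4 each), so that the second was 59.6% of the first. *Edn1*, *Ednra*, *Ece1* and *Ece2* had log2 fold changes between -0.20 and 0.11, all with 95% intervals that include 0. None of the 5 passed an adjusted p of 0.05 in limma, where 0% of the 14608 genes did. At an unadjusted p under 0.05, limma called 1763 genes (12.1%), 967 of them lower (6.62%) and 796 higher (5.45%), and *Ednrb* was the one member among these. The likelihood ratio test of edgeR, run as an alternative on reads recovered from the CPM values, called 107 genes (0.732%), 81 of them lower (0.554%), and *Ednrb* was the one member called. For 1037 genes (7.1%) the groups did not overlap, 569 of them lower (3.9%) and 468 higher (3.2%), and for all 5 members they did.

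**Figure D1:**
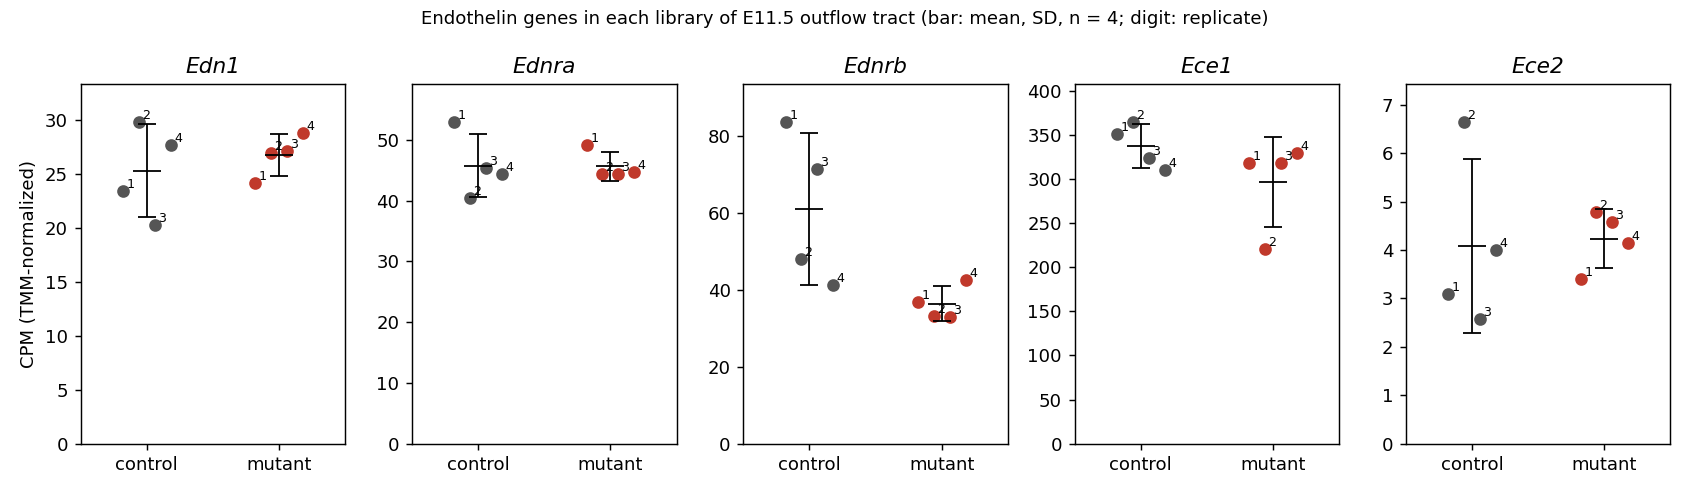
CPM (linear axis from 0) of the 5 endothelin genes in each library, with control-labelled libraries in grey, mutant-labelled libraries in red, the replicate number beside each point, and the mean ± SD of 4 libraries as a bar. *Ednrb* ran from 41.3 to 83.5 CPM in control-labelled and from 32.8 to 42.6 CPM in mutant-labelled libraries, while for *Ece1* a single mutant-labelled library, replicate 2 at 220.4 CPM, lay below the rest.

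The ligand *Edn1* (ENSMUSG00000021367) lies on the plus strand of chromosome 13 from 42301476 to 42307990 (GRCm38). It was at 23.4, 29.8, 20.2 and 27.7 CPM in control-labelled replicates 1 to 4. In mutant-labelled replicates 1 to 4 it was at 24.2, 26.9, 27.1 and 28.8 CPM, all inside the control-labelled range. The means were 25.3 ± 4.30 and 26.7 ± 1.90 CPM (SD, n = 4 each). The log2 fold change was 0.09 (SE 0.12, 95% interval -0.16 to 0.34, adjusted p = 0.753, limma), which is smaller than the spread between control-labelled libraries. *Edn1* rested on 314 to 833 reads a library, so counting gave a coefficient of variation of 4.50% in the control-labelled group, where 17.0% was seen.

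The start of *Edn1* is shown because GATA factors are known to act on the endothelin 1 promoter and *Gata6* carries one of the mutations. The window of 300 bases around its RefSeq start (GRCm38.p6, 250 before and 50 after) held a single match to the GATA motif, searched on both strands as GATAA or GATAG after an A or a T. The match, in capitals, is on the reverse strand at position 9 after the start, in the first exon:
*Edn1*, chr13:42301472-42301501, plus strand: tagagccgggtcTTATCTctggctgcacgt
Of 32851 such windows in the RefSeq table, 29.8% held at least 1 of these motifs, so the match is a description of the sequence and does not show binding.

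The receptor *Ednra* (ENSMUSG00000031616, chromosome 8, 77663031 to 77724464, minus strand) was at 52.9, 40.5, 45.3 and 44.3 CPM in control-labelled replicates 1 to 4. The mutant-labelled replicates held 49.1, 44.3, 44.3 and 44.7 CPM, again inside the control-labelled range. The means of 45.7 ± 5.19 and 45.6 ± 2.33 CPM (SD, n = 4 each) gave a log2 fold change of 0.00 (SE 0.09, adjusted p = 0.997, limma). The 95% interval of that difference ran from -0.19 to 0.19 on the log2 scale. A non-coding gene on the other strand, 4933431K23Rik, shares 91 bp with the exons of *Ednra*, and since the strand setting of the counting is not given in the sources used here, reads from those bases cannot be assigned.

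The receptor *Ednrb* (ENSMUSG00000022122, chromosome 14, 103814625 to 103844402, minus strand) overlaps no annotated gene. Its control-labelled values were 83.5, 48.1, 71.3 and 41.3 CPM in replicates 1 to 4, and its mutant-labelled values 36.9, 33.2, 32.8 and 42.6 CPM. Replicates 1, 2 and 3 of the control-labelled libraries lay above every mutant-labelled library, and control-labelled replicate 4 lay just below mutant-labelled replicate 4. The log2 fold change was -0.69 (SE 0.19, 95% interval -1.10 to -0.28, unadjusted p = 0.00308, adjusted p = 0.253, limma), and the exact permutation test over the 70 relabellings gave p = 0.0571, where 0.0286 is the smallest it can give. On the linear scale the interval runs from 0.468 to 0.822 of the control-labelled level.

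Tests on the recovered reads gave *Ednrb* a log2 fold change of -0.75 with an adjusted p of 0.0247 in the likelihood ratio test of edgeR, 0.227 in its quasi-likelihood test and 0.106 in DESeq2. DESeq2 called 1.54% of the 12621 genes to which it gave an adjusted p. Without control-labelled replicate 1 the likelihood ratio test gave -0.56 (adjusted p = 0.139, edgeR), without control-labelled replicate 3 an adjusted p of 0.180, and without mutant-labelled replicates 1, 2 or 3 adjusted p-values of 0.0615, 0.0939 and 0.176. Without control-labelled replicate 4 it gave -0.90 (adjusted p = 1.5e-04, edgeR). The sign was negative in each of these fits, and the call depended on which library was left out.

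The spread of *Ednrb* was unequal between the groups. The coefficient of variation was 32.3% over the control-labelled and 12.5% over the mutant-labelled libraries, against 3.12% and 3.26% from counting alone at 507 to 2319 reads a library. Only 5.91% of the genes in the table varied more among the control-labelled libraries. Control-labelled replicate 1 had 2.02 times the level of control-labelled replicate 4, while the mutant-labelled libraries stayed within 1.30 times of each other.

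The bases upstream of *Ednrb* are shown because it is the member that differed most between the groups. A further reason is that RBPJ and GATA motifs would be the direct marks of NOTCH and GATA6 in the sequence. The 250 bases before its RefSeq start (GRCm38.p6, minus strand, 5′ to 3′, GC content 56.8%) were:
*Ednrb*, chr14:103843702-103843951: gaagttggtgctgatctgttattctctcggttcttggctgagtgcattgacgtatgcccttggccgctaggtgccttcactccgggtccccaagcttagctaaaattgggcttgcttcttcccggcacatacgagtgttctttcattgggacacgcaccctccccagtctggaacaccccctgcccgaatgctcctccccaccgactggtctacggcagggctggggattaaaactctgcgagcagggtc
None of the GATA motifs and no RBPJ motif (TGGGAA, both strands) occurs in these letters, against 26.5% and 21.6% of the 250-base stretches before all RefSeq starts. The gene model of the annotation reaches further upstream than this start, to 103844402, and the letters say nothing of elements elsewhere.

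**Figure D2:**
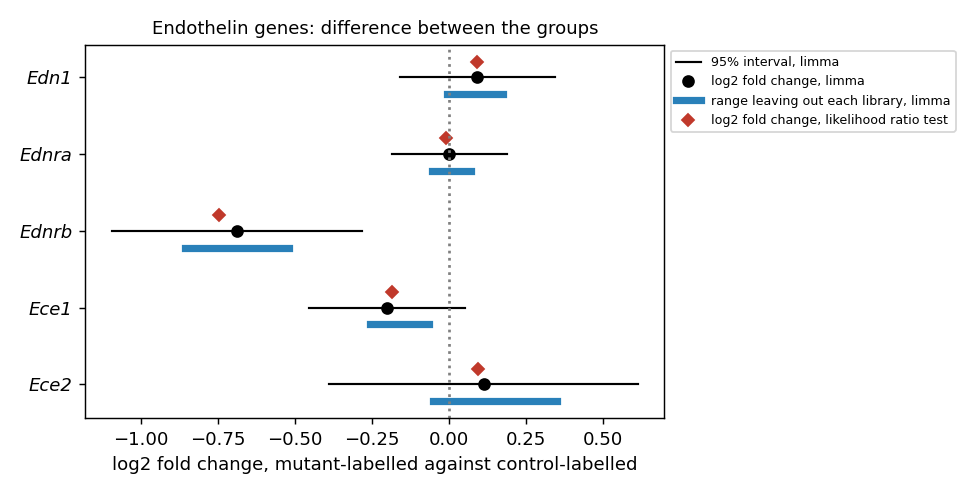
Log2 fold change of each endothelin gene, mutant-labelled against control-labelled, from limma (black point) with its 95% interval (black line), the range of limma values when each library was left out in turn (blue bar) and the value from the likelihood ratio test of edgeR (red diamond). The interval of *Ednrb*, from -1.10 to -0.28, lies below 0, and the intervals of the other members include 0.

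Since both receptors bind endothelin 1, their ratio was compared within libraries, where scaling drops out. The ratio of *Ednra* to *Ednrb* CPM was 0.633, 0.842, 0.636 and 1.07 in control-labelled replicates 1 to 4. It was 1.33, 1.33, 1.35 and 1.05 in mutant-labelled replicates 1 to 4. Control-labelled replicate 4 and mutant-labelled replicate 4 were nearly equal, and the other libraries fell on separate sides of 1. The mean ratio was 1.62 times higher in the mutant-labelled group (log2 difference 0.70, exact permutation p = 0.0571, 0.171 after Benjamini-Hochberg adjustment over the 3 ratios tested). The ratio of *Edn1* to *Ece1* differed by 0.30 on the log2 scale (exact permutation p = 0.20, adjusted 0.30) and that of *Ece1* to *Ece2* by -0.34 (exact permutation p = 0.40, adjusted 0.40).

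The converting enzyme *Ece1* (ENSMUSG00000057530, chromosome 4, 137862237 to 137965229, plus strand), which acts on big endothelin 1 and is required for crest-derived parts of the heart and face, had the highest level of the 5. Control-labelled replicates 1 to 4 held 351, 364, 324 and 310.0 CPM. Mutant-labelled replicates 1 to 4 held 318, 220.4, 318 and 329 CPM, so that only replicate 2 lay outside the control-labelled range. The log2 fold change was -0.20 (SE 0.12, 95% interval -0.45 to 0.05, adjusted p = 0.496, limma), and it was -0.06 without mutant-labelled replicate 2. Libraries differed in their trend with GC content: the slope on the log2 scale for each 10% of GC was -0.19 in that library and 0.23 in control-labelled replicate 2, where *Ece1* was highest, and lay between -0.06 and 0.11 elsewhere. *Ece1* transcripts have 56.1% GC, and with the GC trend of each library removed its log2 fold change was -0.12. The part of GC content in the level of *Ece1* in any 1 library was not tested.

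*Ece1* has several transcription starts, and the windows of 300 bases at its RefSeq starts held a single match to either motif. It is an RBPJ match on the reverse strand, in capitals, 229 bases before the start of 1 of them:
*Ece1*, chr4:137920552-137920581, plus strand: tggtctgagctgTTCCCActtgcagagagc
Windows with at least 1 RBPJ match made up 25.6% of the 32851. That share is for a single window, whereas several windows were searched for *Ece1*. The match describes the sequence and does not show binding.

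*Ece2* (ENSMUSG00000022842, chromosome 16, 20629828 to 20646485, plus strand), a related enzyme best known from neural tissue, was the lowest member. Control-labelled replicates 1 to 4 held 3.10, 6.64, 2.58 and 4.01 CPM and mutant-labelled replicates 1 to 4 held 3.41, 4.78, 4.58 and 4.15 CPM. The log2 fold change was 0.11 (SE 0.23, 95% interval -0.39 to 0.61, adjusted p = 0.859, limma), from 64 to 141 reads a library. Its value is uncertain, because 2937 bp of its exons (57.5%) also belong to Gm49333, a protein-coding gene on the same strand, and reads there could be counted for either.

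Gm49333, examined after its values were seen, was at 2.16, 0, 2.99 and 1.08 CPM in control-labelled replicates 1 to 4, and mutant-labelled replicates 1 to 4 held 2.47, 0.993, 1.53 and 2.40 CPM. It was listed at 0 in control-labelled replicate 2, where *Ece2* was highest, and was highest in control-labelled replicate 3, where *Ece2* was lowest. The sum of both genes ran from 5.09 to 6.64 CPM over the 8 libraries, with a coefficient of variation of 9.56%, against 30.04% for *Ece2* alone. The control-labelled mean of the sum was 5.64 ± 0.696 CPM and the mutant-labelled mean 6.08 ± 0.343 CPM (SD, n = 4 in both, exact permutation p = 0.257).

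**Figure D3:**
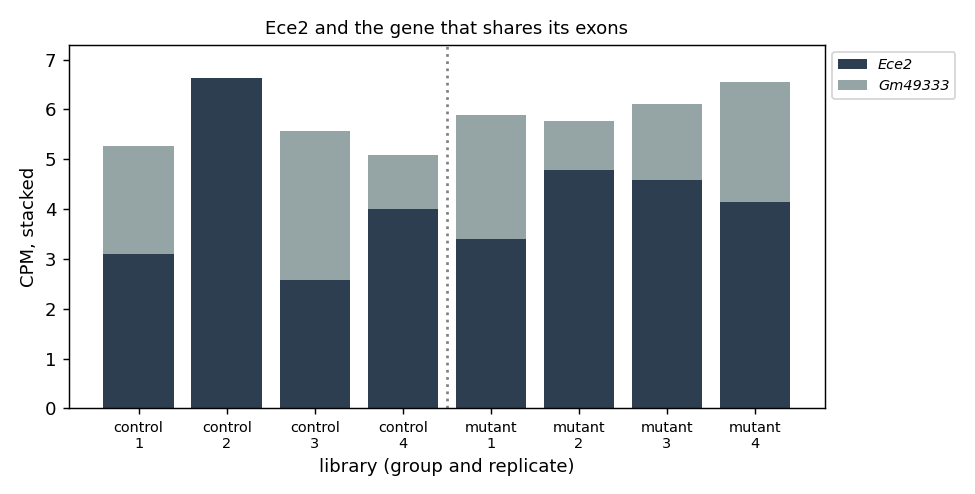
CPM of *Ece2* (dark) and of Gm49333, which shares its exons (light), stacked for each of the 8 libraries on an axis from 0. The totals lie between 5.09 and 6.64 CPM although *Ece2* alone runs from 2.58 to 6.64 CPM.

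Levels were compared between genes per kilobase of exon. In CPM per kilobase, the control-labelled means were 63.7 for *Ece1*, 14.3 ± 4.63 for *Ednrb*, 11.8 ± 2.01 for *Edn1*, 8.35 for *Ednra* and 0.799 for *Ece2*. The mutant-labelled means were 56.0, 8.53 ± 1.07, 12.5 ± 0.890, 8.33 and 0.828 in the same order of genes. *Ece1* was above *Edn1* and *Ednra* above *Ece2* in 8 of 8 libraries. The order of the neighbours in the middle depended on the group. *Ednrb* exceeded *Ednra* in 4 of 4 control-labelled and 1 of 4 mutant-labelled libraries, and *Edn1* exceeded *Ednrb* in 2 of 4 control-labelled and 4 of 4 mutant-labelled libraries.

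The other ligands and peptidases were followed with a list of 11 genes, of which 7 had values, while *Edn2*, *Ecel1*, *Mmel1* and *Phex* had none in the table. The counts for the lists use unadjusted limma p-values, since no gene passed after adjustment. Of all 14608 genes, 5.45% were higher and 6.62% lower at an unadjusted p under 0.05, the shares beside which each list count stands. *Pcsk6*, a proprotein convertase, was the one of the 7 under 0.05. It was at 58.8, 52.4, 47.0 and 55.1 CPM in control-labelled replicates 1 to 4, and mutant-labelled replicates 1 to 4 held 40.9, 42.4, 46.4 and 44.6 CPM, with no overlap (log2 fold change -0.28). *Furin*, whose product trims the precursor to big endothelin, had a log2 fold change of -0.18 that did not pass. The median over the 7 was 0.06, and over all genes 0.001.

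*Edn3*, the ligand of EDNRB, was looked at after its values were seen and was scarce. It was at 1.73, 1.71, 0.968 and 1.85 CPM in control-labelled replicates 1 to 4, and mutant-labelled replicates 1 to 4 held 6.07, 1.25, 1.95 and 1.45 CPM. Mutant-labelled replicate 1, with 130 reads, lay far above the other libraries. The log2 fold change was 0.42 (adjusted p = 0.628, limma), and the other mutant-labelled values, from 1.25 to 1.95 CPM, lay among the control-labelled ones or just above.

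All 26 genes of receptor signalling (G proteins, phospholipase C, inositol trisphosphate receptors, protein kinase C, arrestins and RGS proteins) had values, with a median log2 fold change of -0.05. At an unadjusted p under 0.05, 4 were higher and 2 lower, against 5.45% and 6.62% of all genes. The higher ones were *Rgs5*, *Rgs4*, *Rgs2* and *Plcb1*. RGS proteins speed the shut-off of G proteins, and *Plcb1* encodes a phospholipase C that Gq activates. *Rgs5*, which also marks pericytes, was at 272, 224, 227 and 247 CPM in control-labelled replicates 1 to 4, and mutant-labelled replicates 1 to 4 held 368, 432, 357 and 290.4 CPM.

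All mutant-labelled libraries thus held more *Rgs5* than any control-labelled one. The likelihood ratio test called it higher (adjusted p = 0.00142, edgeR), the one gene of this list called there. In limma its log2 fold change of 0.57 did not pass after adjustment (adjusted p = 0.142). *Rgs4* went from 8.28 ± 1.09 to 12.9 ± 3.82 CPM (SD, n = 4 each, log2 fold change 0.58), and the log2 fold changes of *Rgs2* and *Plcb1* were 0.31 and 0.33. Beside these, 3 of 10 smooth muscle and mural genes were higher (*Cald1*, *Pdgfrb* and *Myh11*, log2 fold changes of 0.26, 0.24 and 0.78) and 2 lower (*Myocd* and *Smtn*, -0.27 and -0.19) at an unadjusted p under 0.05, while *Notch3* and *Acta2* were at 0.00 and -0.03, with summed levels of 2963 to 3335 CPM in control-labelled and 2899 to 3479 CPM in mutant-labelled libraries. The part of these cells in the *Rgs5* level was not tested. The lower signalling genes were *Gna12* (log2 fold change -0.18) and *Gnai2* (-0.21, named after its value was seen), and 2 of 26 is close to the 6.62% of all genes that were lower. The lower count was 0 of 26 in limma without mutant-labelled replicate 2, without control-labelled replicate 2 and with the GC trend removed, where 5.46%, 4.59% and 6.30% of all genes were lower. In the same order the higher count was 4, 3 and 5 of 26. Over all genes it was 532 of 14608, 450 of 14608 and 689 of 14594.

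**Figure D4:**
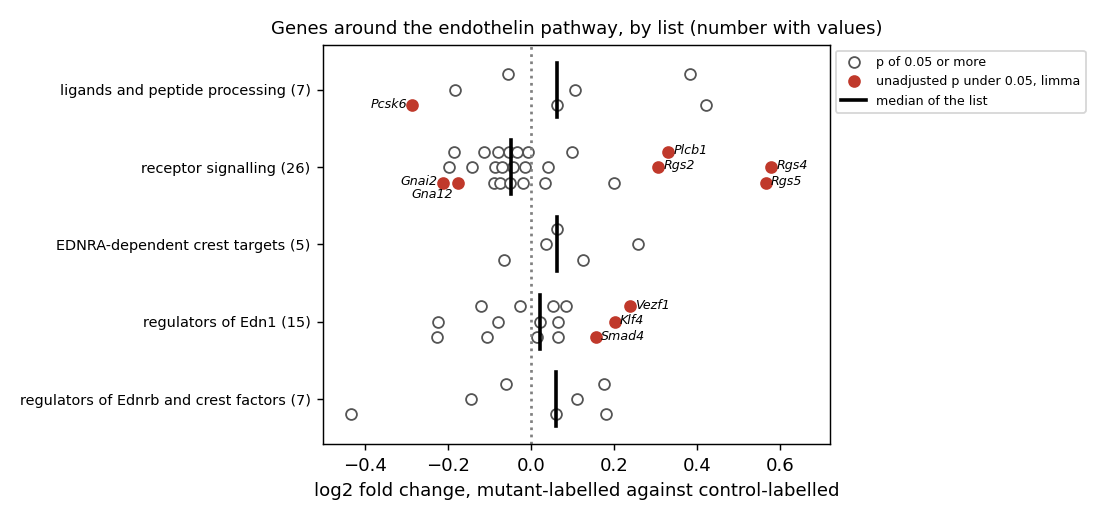
Log2 fold change (limma, mutant-labelled against control-labelled) of each gene with a value in the 5 lists around the endothelin pathway, with genes at an unadjusted p under 0.05 filled in red and named, and the median of each list as a bar. Each list has its median between -0.05 and 0.06, and *Rgs5* and *Rgs4* lie farthest to the right, at 0.57 and 0.58.

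Genes that depend on EDNRA in the crest of the pharyngeal arches had values for 5 of 10 (*Dlx5*, *Hand1*, *Hand2*, *Msx1* and *Barx1*), and 0 passed an unadjusted p of 0.05 in limma, 0 in the likelihood ratio test. *Hand2*, a factor of the arches and the right ventricle, was the most abundant, with 231 ± 39.5 CPM in control-labelled and 220.2 ± 33.8 CPM in mutant-labelled libraries (SD, n = 4 each). Over all genes, 5.45% were higher and 6.62% lower at an unadjusted p under 0.05 in limma. Among 15 known or proposed regulators of *Edn1*, 3 were higher and 0 lower by this measure, while 0 passed in the likelihood ratio test. They were *Vezf1*, a zinc finger protein that activates the *Edn1* promoter in endothelium (72.4 ± 6.24 to 85.3 ± 1.30 CPM, SD, n = 4 each, log2 fold change 0.24), *Smad4* (0.16) and *Klf4* (0.20). Of 10 regulators of *Ednrb* and crest factors 7 had values, and 0 passed in limma at an unadjusted p under 0.05 or in the likelihood ratio test. The most abundant of them, *Ets1*, had a log2 fold change of 0.06.

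*Ednrb* is a gene of both endothelial and crest cells, so markers of these and of the other cells of the OFT were set beside it. In bulk RNA, fewer cells of a type and less RNA per cell cannot be told apart. Of 16 endothelial genes 0 were higher and 2 lower at an unadjusted p under 0.05 (*Eng* and *Emcn*), and their summed level was 1116 to 1334 CPM in control-labelled and 1150 to 1239 CPM in mutant-labelled libraries. The 8 endocardial genes (1 higher, 2 lower) summed to 972 to 1140 and 930.1 to 1154 CPM, so the endothelial and endocardial sums overlapped between the groups. *Emcn*, the sialomucin endomucin, was at 44.4, 26.6, 32.5 and 25.6 CPM in control-labelled replicates 1 to 4, and mutant-labelled replicates 1 to 4 held 25.9, 16.8, 19.0 and 23.8 CPM (log2 fold change -0.57, adjusted p = 0.280, limma).

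*Gja5*, connexin 40 from the vascular list, was at 45.4, 32.5, 41.8 and 22.5 CPM in control-labelled replicates 1 to 4. Mutant-labelled replicates 1 to 4 held 30.3, 20.5, 21.4 and 25.5 CPM (log2 fold change -0.50). Bulk RNA does not show which cells the *Gja5* reads came from. *Npr3*, an endocardial receptor for natriuretic peptides, had a log2 fold change of -0.46, and *Plvap*, a diaphragm protein, -0.44. The endocardial gene *Hapln1* went the other way (0.26), as did the vascular genes *Mecom* (0.27) and *Fbln5* (0.57). *Emcn* and *Gja5* were high in control-labelled replicates 1 and 3, the libraries in which *Ednrb* was highest.

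Over the 8 libraries, Pearson's r of log2(CPM + 0.5) with *Ednrb* was 0.93 for *Emcn*, 0.92 for *Gja5*, 0.87 for *Kdr*, 0.81 for *Npr3* and -0.67 for *Hapln1*, and within the groups it was 0.85, 0.88, 0.87, 0.68 and -0.29 in the same order. Over the whole lists the median r was 0.18 for the 16 endothelial genes, 0.39 for the 8 endocardial genes and -0.18 for the 8 vascular genes. Within the groups these medians were 0.30, 0.45 and -0.17 in the same order. Of the 11651 genes whose mean reached 5 CPM, 0.146% had a higher r with *Ednrb* than *Emcn* and 0.180% a higher one than *Gja5*. For *Pecam1* and *Flt1*, which also mark endothelium, r was -0.11 and -0.06, and within the groups 0.46 and 0.25. These values describe 8 libraries of the same groups and unequal depth, and *Emcn*, *Gja5*, *Kdr*, *Pecam1* and *Flt1* were picked from the marker lists after the values were seen. The part of these cells in the *Ednrb* difference was not tested.

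**Figure D5:**
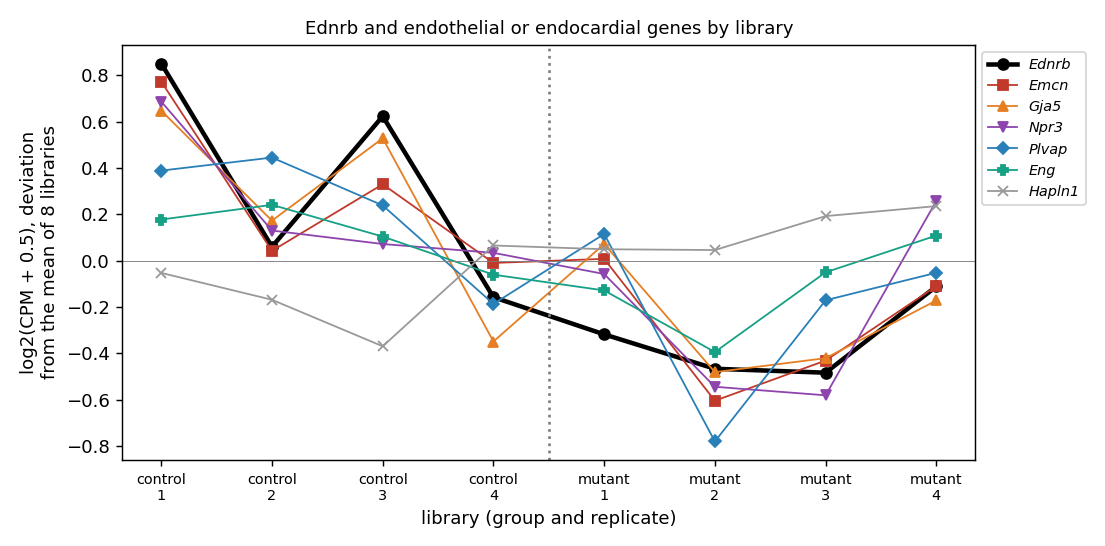
Deviation of log2(CPM + 0.5) from the mean of the 8 libraries for *Ednrb* (thick black) and 6 genes of the endothelial, endocardial and vascular lists, by library. The dotted line lies between control-labelled and mutant-labelled libraries. *Emcn* and *Gja5* run close to *Ednrb*, with r of 0.93 and 0.92, while *Hapln1* runs the other way, with r of -0.67.

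Crest glia and melanoblasts, the other source of *Ednrb*, could be followed in part only, and the abundance of these cells was not tested. Of 10 markers 4 had values, and the defining genes *Foxd3*, *Fabp7*, *Dct*, *Pmel*, *Mlana* and *S100b* had none in the table. *Sox10* was at 2.84 ± 1.01 CPM in control-labelled and 1.98 ± 0.734 CPM in mutant-labelled libraries (SD, n = 4 each). The other markers with values were more abundant than *Sox10*. *Erbb3* was at 70.9 ± 8.47 CPM in control-labelled and 60.6 ± 13.6 CPM in mutant-labelled libraries (SD, n = 4 each). *Ngfr* was at 20.2 ± 1.89 and 23.8 ± 6.41 CPM in the same order. *Kit* had a mean of 14.7 CPM over the 8 libraries and a log2 fold change of -0.06. Of the 4, only *Ngfr* had a positive log2 fold change (0.19), and those of *Sox10* and *Erbb3* were -0.43 and -0.25. In limma 0 of the 4 passed an unadjusted p of 0.05, and 0 passed the likelihood ratio test. Their summed level was 96.7 to 123 CPM in control-labelled and 71.2 to 116 CPM in mutant-labelled libraries. Cardiomyocyte genes moved with the groups: 11 of 12 were lower at an unadjusted p under 0.05, their median log2 fold change was -0.35, and their sum was 21396 to 24873 CPM in control-labelled and 16834 to 19878 CPM in mutant-labelled libraries, with no overlap. The r with *Ednrb* over the 12 cardiomyocyte genes ran from 0.12 for *Myl7* to 0.91 for *Myl2*, with a median of 0.79, and within the groups from -0.24 to 0.79 with a median of 0.50, and the part of cardiomyocytes in the *Ednrb* difference was not tested.

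Of the remaining lists, 0 of 12 cushion mesenchyme, 0 of 9 macrophage, 0 of 12 erythroid and 0 of 2 pharyngeal epithelial genes with values passed an unadjusted p of 0.05 in limma and 0 passed in the likelihood ratio test. In the epicardial list 1 of 8 was lower, and in the neuronal list 2 of 7 were higher, of which *Stmn2* passed the likelihood ratio test (log2 fold change 0.58 in limma, adjusted p = 0.0437 in edgeR). The pharyngeal epithelium, a known source of *Edn1* in the arches, could hardly be followed, since 9 of its 11 markers, among them *Epcam*, *Cdh1* and *Pax9*, had no value in the table.

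By the same measure, the genes whose pattern over the 8 libraries was most like that of each member, among the 11651 genes, were *Slc25a12* (r = 0.98), *Dlst* (0.97) and *Pi4ka* (0.95) for *Ednrb*, and *Mettl6* (0.98), *Npc1* (0.97) and *Rnf130* (0.97) for *Edn1*. For *Ednra* they were *Ehmt1*, *Vta1* and *Mrpl39*, all at 0.94. For *Ece1* they were *Nacc1* (0.99), *Nap1l4* (0.99) and *Mmp28* (0.98), and for *Ece2* they were *Mageh1* (0.96), *Mgat1* (0.95) and *Apobec3* (0.93). With 8 libraries and 11651 genes, values this high are found for each of the 5 members.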

How the data were processed

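The authors trimmed reads with cutadapt, quantified them with RSEM on GRCm38 and deposited TMM-normalized CPM from edgeR for 14608 genes (13 without a symbol) in 8 libraries, and 0 columns were left out. Reads on listed genes ranged from 10669420 in control-labelled replicate 2 to 30469165. A read step taken from the smallest gap between values made 100% of values whole reads, within 0.001 reads. Count tests on these reads served as alternatives only. Log2(CPM + 0.5) was fitted with limma 3.58.1 (trend, two-sided, Benjamini-Hochberg over all genes, threshold 0.05) in R 4.3.3, beside edgeR 4.0.16, DESeq2 1.42.0 and exact permutation tests of 4 against 4. The fits were tested on simulated data. Overlaps and exon lengths came from GENCODE on GRCm38 (14594 genes matched), and sequences from RefSeq (GRCm38.p6, 5 of 5 members). Named genes were the members, *Gata6* and *Mib1*, up to 5 genes per pathway list with an unadjusted p under 0.05 (otherwise the most abundant), the most abundant and up to 3 lowest-p genes per marker list, and the 3 most alike to each member. In the list of crest glia and melanoblasts 2 genes are not reported here and were left out of its counts and sums. Members and lists were chosen with earlier results of these data known. The labels give no batch. Replicate numbers were not taken as pairs, and whether same-numbered libraries shared a litter or batch is not known. Within each group no library was a copy of another (chi-square per gene 6.67 to 33.7), and pairs across the groups were not checked.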

Additional observations from a re-analysis of the deposited data

Results flagged for a closer look

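In 116 groups of 4 libraries, each gene's highest and lowest library was compared with the nearest other, and 6 groups were marked, where chance marks about 1 in 20, or 5.8. Among the members, *Ednra* was marked in mutant-labelled replicate 1 (49.1 CPM, next 44.7 CPM) and *Ece1* in mutant-labelled replicate 2 (220.4 CPM, next 318 CPM). *Edn3* was marked on both sides, in control-labelled replicate 3 (0.968 CPM, next 1.71 CPM) and in mutant-labelled replicate 1 (6.07 CPM, next 1.95 CPM). Of the marker genes, *Npr3* was marked in control-labelled replicate 1 (113 CPM, next 76.6 CPM) and *Csf1r* in mutant-labelled replicate 2 (26.0 CPM, next 17.6 CPM).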

How the results depend on the processing

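The *Ednrb* log2 fold change was negative in all 21 alternatives and passed the threshold in 1, the likelihood ratio test of edgeR (-0.75, adjusted p = 0.0247), and its adjusted p over the alternatives ran up to 0.554 in limma. Leaving out each library moved it from -0.86 to -0.52 in limma and from -0.90 to -0.56 in the likelihood ratio test, where 3 of 8 fits kept the call. With the replicate number as a block, the likelihood ratio test gave -0.70 (adjusted p = 0.0548, edgeR) and limma -0.69 (adjusted p = 0.455, 0 genes called). Same-numbered libraries did not deviate together (r of 0.03, -0.19, 0.03 and -0.05 for numbers 1 to 4), so the numbers are not taken as pairs. These likelihood ratio fits and the GC correction were chosen after seeing the data.

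*Ednra*, whose value is close to 0, turned negative under quantile normalization (-0.0030), array weights (-0.027), the quasi-likelihood test (-0.0092), the likelihood ratio test (-0.010), DESeq2 (-0.013) and removal of the GC trend (-0.022), and ran from -0.055 to 0.072 with each library left out. *Edn1* ran from -0.0073 to 0.18 and *Ece2* from -0.052 to 0.35 in the same way, both turning negative without control-labelled replicate 3. *Ece2* has no value under the filter on a mean of 5 CPM. *Ece1* stayed negative in its 21 alternatives, from -0.26 to -0.06 with a library left out. The table held 0 calls in limma, 2 with array weights, 107 in the likelihood ratio test and 194 in DESeq2, for causes that were not tested. Depth was least for *Ece2* among the members, at 64 to 141 reads a library, where the coefficient of variation was 11.3% from counting and 44.2% as seen over the control-labelled libraries.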
